A study of Mus musculus with 12 samples.

Results

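The 8 genes described here encode proteins that adipose tissue releases into the blood or uses in signalling, and they are grouped as adipokines. They are Adipoq (adiponectin), Retn (resistin), Cfd (adipsin, or complement factor D), Rbp4 (retinol binding protein 4), Rarres2 (chemerin), Apln (apelin), Nampt (nicotinamide phosphoribosyltransferase, or visfatin) and Serpina12 (vaspin). Members were chosen by gene symbol, and each of the 8 symbols stood at 1 locus among the 24890 features listed in each library's table. A filter on low values kept features that reached 1 FPKM in 3 or more of the 12 libraries, and 7 of the 8 genes and 13175 features in all passed it and were tested. Serpina12 did not pass.

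RNA was sequenced from white fat of male C57BL/6J mice aged 18 weeks, kept on normal chow. Tissue was digested with collagenase I, which separates the floating fat cells from the stromal vascular cells (SVCs), a mixture of progenitors, fibroblasts, endothelial cells and immune cells. The groups were adipocytes of inguinal adipose tissue (IAT, a subcutaneous depot), adipocytes of epididymal adipose tissue (EAT, a visceral depot), SVCs of IAT and SVCs of EAT, with 3 libraries each. No group carried a transgene, a mutation or a drug treatment. The labels number the libraries and name no mouse or pool, so each p-value below measures the spread between libraries, which may be partly technical.

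Adiponectin, resistin and adipsin are made almost wholly by fat cells in mice, and the transcription factors PPARG and C/EBP alpha are known to drive adiponectin transcription. Resistin comes mainly from macrophages in humans, so its place in fat cells is a feature of rodents. Chemerin, apelin and NAMPT are made by many cell types, and the liver is a large source of retinol binding protein 4 and of chemerin.

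Values are FPKM, fragments per kilobase of transcript and per 1 M mapped fragments, which allow levels to be compared between genes and were deposited with confidence bounds. Summed over features, those bounds imply 14.1 to 24.6 M fragments per library. This figure is rough, since the bounds of some abundant genes, such as Cfd, did not follow their level. The bounds of Adipoq lay within 0.685% of its value in every adipocyte library, while those of Apln lay 5.43% to 19.1% away over the 12 libraries. Differences below are on the scale of log2(FPKM + 1), where the added 1 shrinks the differences of low genes such as Apln. They come from limma with Benjamini-Hochberg adjustment over all 13175 features, and adjusted p under 0.05 was called.

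The labels of the fractions were checked against marker genes. All 10 adipocyte markers were higher in adipocytes than in SVCs in both depots. All 10 endothelial, 10 macrophage, 10 fibroblast and progenitor and 8 lymphocyte markers tested were lower in adipocytes in both depots. So were the 7 red blood cell features tested, among which Hba-a1 and Hba-a2 each stand at more than 1 locus. The remaining lists were mixed. Of 6 neutrophil markers, 5 were lower and 1 higher in each depot. Of 10 mesothelial markers, 10 were lower in EAT, but 3 were lower, 1 higher and 6 not called in IAT. Of 5 skeletal muscle markers, 4 were lower and 1 not called in IAT, and 2 were lower, 1 higher and 2 not called in EAT. SVCs of IAT had more of all 8 lymphocyte and all 5 skeletal muscle markers tested than SVCs of EAT had, and less of 5 of 6 neutrophil markers. EAT adipocyte replicate 1 departed from the other EAT adipocyte libraries by transcript length, and results are given without it where it matters.

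Adipoq, Retn, Cfd and Rbp4 shared one pattern, with levels in adipocytes far above those in SVCs, and their promoters are shown for that reason. The sequences are the 250 bases before each RefSeq transcription start on GRCm38.p6, written 5′ to 3′ on the gene's own strand. They stand at chr16:23146286-23146535 (+ strand) for Adipoq, chr8:3655520-3655769 (+ strand) for Retn and chr10:79890603-79890852 (+ strand) for Cfd. RefSeq gives 2 starts for Rbp4, with windows at chr19:38125322-38125571 and chr19:38124812-38125061 (- strand), labelled a and b. Capitals mark the letters matched by the motifs named after the sequences.
Adipoq: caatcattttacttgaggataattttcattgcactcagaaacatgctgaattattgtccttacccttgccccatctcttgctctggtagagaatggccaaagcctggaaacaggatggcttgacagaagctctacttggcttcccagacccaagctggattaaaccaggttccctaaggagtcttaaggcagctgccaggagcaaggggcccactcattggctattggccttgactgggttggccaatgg
Retn: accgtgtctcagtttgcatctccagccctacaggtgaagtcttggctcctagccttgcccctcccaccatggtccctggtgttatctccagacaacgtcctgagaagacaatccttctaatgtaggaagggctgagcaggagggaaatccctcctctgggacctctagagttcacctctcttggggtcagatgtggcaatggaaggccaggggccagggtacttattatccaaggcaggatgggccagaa
Cfd: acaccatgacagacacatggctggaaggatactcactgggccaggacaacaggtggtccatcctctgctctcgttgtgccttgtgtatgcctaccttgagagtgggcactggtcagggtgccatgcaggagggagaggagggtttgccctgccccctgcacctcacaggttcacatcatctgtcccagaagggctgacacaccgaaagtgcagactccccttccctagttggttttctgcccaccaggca
Rbp4 a: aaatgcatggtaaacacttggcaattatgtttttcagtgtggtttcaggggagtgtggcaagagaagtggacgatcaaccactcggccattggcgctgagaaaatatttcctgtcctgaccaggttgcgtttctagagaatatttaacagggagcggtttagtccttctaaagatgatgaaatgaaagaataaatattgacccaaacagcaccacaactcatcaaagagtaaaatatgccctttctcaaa
Rbp4 b: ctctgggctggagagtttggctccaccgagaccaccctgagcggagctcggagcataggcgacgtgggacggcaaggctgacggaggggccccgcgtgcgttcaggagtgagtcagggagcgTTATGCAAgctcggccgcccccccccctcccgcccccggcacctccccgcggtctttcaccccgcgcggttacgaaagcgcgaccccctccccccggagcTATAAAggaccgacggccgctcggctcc
The search covered these bases and the 50 that follow the start, on both strands. It used AGGTCA (the core site of nuclear receptors), the direct repeat of AGGTCA with a spacer of 1 base (bound by PPARG with its partner RXR, and containing the core site), TTGCNNAA (a C/EBP type motif) and TATAAA (a core promoter element). Window b of Rbp4 held TTATGCAA, the reverse complement of a C/EBP match, at 128 bases before the start, and TATAAA at 28 bases before it. The windows of Adipoq, Retn and Cfd and window a of Rbp4 held none of these letters. Among all 32851 RefSeq windows, 10.8% held TTGCNNAA, 13.6% held TATAAA, 16.3% held AGGTCA and 0.0396% held the direct repeat. Of the other members, Nampt had AGGTCA at 151 bases before its start and Serpina12 had TTGCAAAA at 90 bases before its start. A match is a description of the letters and not of a bound site.

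Adipsin was the most abundant adipokine transcript by far, and adiponectin and resistin followed at about the same level as each other. Cfd ranked 2 among all features in each of the 6 adipocyte libraries. It averaged 19828 ± 1577 FPKM in IAT adipocytes and 15269 ± 3463 FPKM in EAT adipocytes (SD, n = 3 each). Cfd alone made up 4.13% ± 0.284 of the summed FPKM in IAT adipocytes and 3.23% ± 0.364 in EAT adipocytes (SD, n = 3 each). The 8 genes together held 5.79% of that sum in IAT adipocytes, 5.32% in EAT adipocytes, and 0.114% in the SVCs of either depot. Adipoq had a median rank of 10 in IAT adipocytes and 6 in EAT adipocytes. Retn had a median rank of 12 in IAT adipocytes and 7 in EAT adipocytes.

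**Figure D1:**
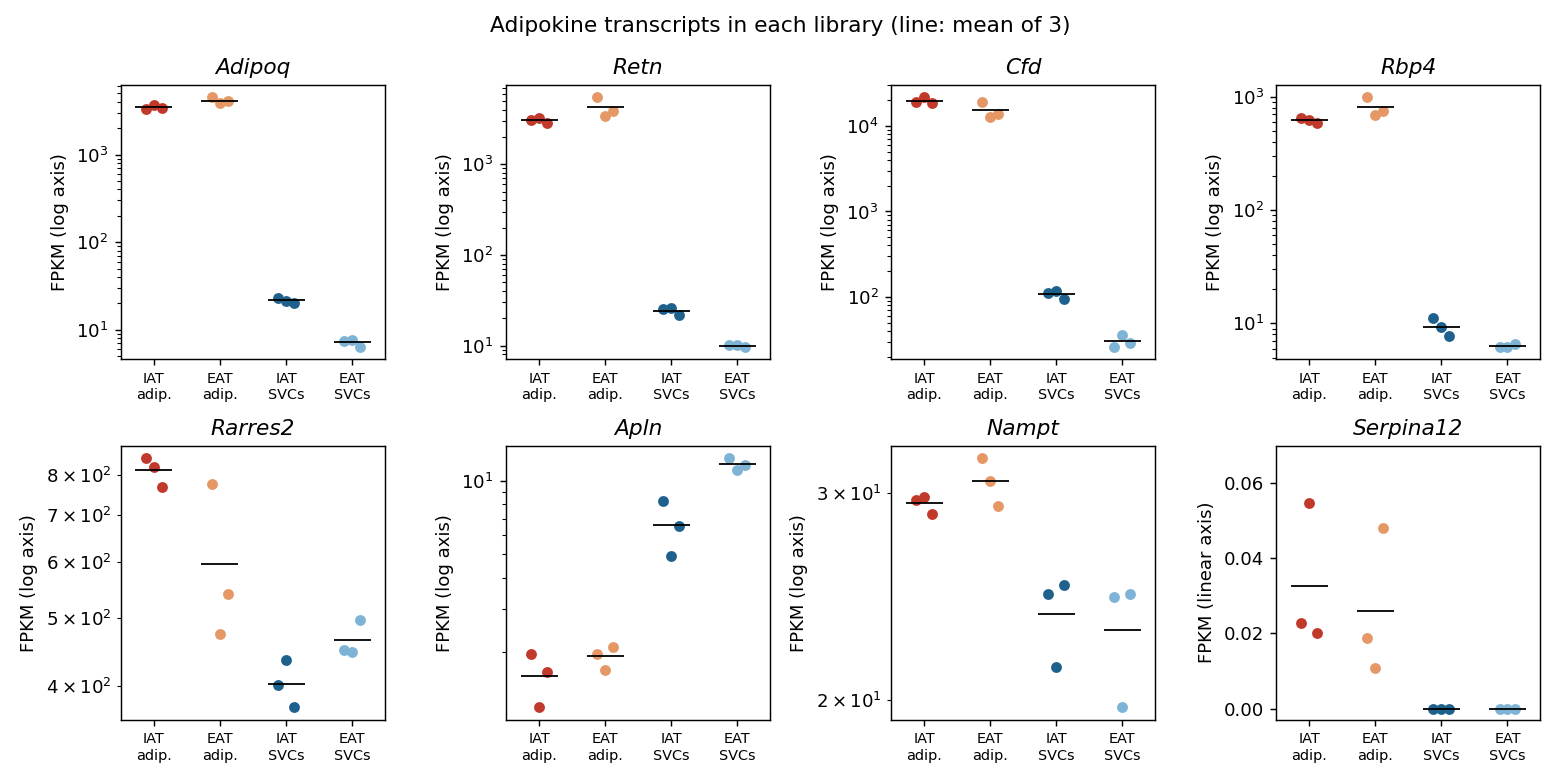
FPKM of the 8 adipokine genes in each of the 12 libraries, by group, on log axes except for Serpina12, whose axis is linear. Points are libraries and lines are means of 3. Adipoq, Retn, Cfd and Rbp4 stand far higher in adipocytes, Apln is higher in SVCs, and Rarres2 and Nampt lie within a narrow range.

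Adipocytes held 65.8 to 578 times the SVC level of 4 adipokines, more Nampt by a smaller margin, more Rarres2 in IAT, and less apelin. In IAT, 6 of the 7 tested genes were higher in adipocytes than in SVCs and 1 was lower. In EAT, 5 were higher, 1 was lower and Rarres2 did not pass the test as deposited, although it did under each of the 3 rescalings, which makes 6 higher. Most features differed between the fractions: 83.7% of all features were called in IAT (29.8% higher, 53.9% lower) and 83.8% in EAT (31.1% higher, 52.7% lower). The median log2 difference of the members was 5.91 in IAT and 6.76 in EAT, beside -0.34 in IAT and -0.31 in EAT over all features. With median-of-ratios scaling the medians of all features were 0.02 in IAT and 0.03 in EAT, and calls split into 5524 higher and 5316 lower in IAT (3921 and 7107 as deposited) and 5544 higher and 5314 lower in EAT (4093 and 6948 as deposited). The groups did not overlap for 7 of 7 members in IAT, beside 88.3% of all features, and for 6 of 7 in EAT, beside 83.1%. Without EAT adipocyte replicate 1, the EAT differences were 8.93 for Adipoq, 8.74 for Cfd, 8.37 for Retn, 6.61 for Rbp4, 0.38 for Nampt and -2.13 for Apln, all still called. In these bulk samples, fewer cells of a type and less RNA per cell cannot be told apart.

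Adiponectin is a collagen-like hormone that raises insulin sensitivity, and its gene lies at chr16:23146536-23157968 (+ strand, mm10). Adipoq had 3307, 3709.8 and 3366 FPKM in IAT adipocytes, against 23.0, 21.6 and 20.4 FPKM in IAT SVCs. EAT adipocytes had 4503, 3890.0 and 4056 FPKM of it, against 7.46, 7.64 and 6.44 FPKM in EAT SVCs. Every adipocyte library stood above every SVC library. The ratio of means was 160 in IAT and 578 in EAT, and the log2 differences were 7.25 ± 0.091 in IAT and 8.99 ± 0.091 in EAT (SE, limma, adjusted p = 1.5e-14 and 1.6e-15). By size of the log2 difference among the 13175 features, Adipoq ranked 2 in IAT and 1 in EAT.

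Adipsin is the serine protease that cleaves factor B in the alternative complement pathway, and its gene lies at chr10:79890853-79892660 (+ strand). Cfd had 19119, 21635 and 18729.9 FPKM in IAT adipocytes, against 110.2, 118 and 95.5 FPKM in IAT SVCs. Levels in EAT adipocytes were 19205, 12688 and 13914 FPKM, against 26.2, 35.5 and 29.2 FPKM in EAT SVCs. The fractions did not overlap in either depot, and the IAT SVC libraries held the higher of the SVC levels. The log2 differences were 7.51 ± 0.16 in IAT and 8.92 ± 0.16 in EAT (SE, limma, adjusted p = 4.3e-13 and 1.0e-13), which ranked 1 in IAT and 2 in EAT by size.

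Resistin is a small cysteine-rich hormone that opposes insulin action in mice, and its gene lies at chr8:3655770-3659818 (+ strand). Retn had 3042, 3205 and 2883 FPKM in IAT adipocytes, against 25.1, 25.8 and 22.0 FPKM in IAT SVCs. The EAT adipocyte libraries had 5455, 3412 and 3863 FPKM, against 10.2, 10.1 and 9.76 FPKM in EAT SVCs. Adipocytes were higher throughout, and EAT adipocyte replicate 1 stood well above the other 11 libraries. The ratio of means was 125 in IAT and 424 in EAT, with log2 differences of 6.91 ± 0.14 and 8.56 ± 0.14 (SE, limma, adjusted p = 2.6e-13 and 4.2e-14).

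Retinol binding protein 4 carries vitamin A in the blood, and its gene lies at chr19:38116620-38125321 (- strand). Rbp4 had 646, 623 and 583 FPKM in IAT adipocytes, against 11.1, 9.27 and 7.81 FPKM in IAT SVCs. EAT adipocytes held 984, 693 and 744 FPKM, against 6.26, 6.25 and 6.59 FPKM in EAT SVCs. The fractions did not overlap, and the ratio of means was lower than for Adipoq, Cfd and Retn, at 65.8 in IAT and 127 in EAT. The log2 differences were 5.91 ± 0.13 in IAT and 6.76 ± 0.13 in EAT (SE, limma, adjusted p = 5.0e-13 and 1.5e-13).

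Chemerin is a secreted chemoattractant for macrophages and dendritic cells, and its gene lies at chr6:48569698-48572670 (- strand). Rarres2 was abundant in all 4 groups. It had 845, 819.6 and 769 FPKM in IAT adipocytes, against 401, 435 and 373 FPKM in IAT SVCs, with no overlap. In EAT it had 777, 474 and 541 FPKM in adipocytes, against 450.0, 447 and 496 FPKM in SVCs, and the groups overlapped. The log2 difference was 1.01 ± 0.15 in IAT (SE, limma, adjusted p = 3.7e-05). In EAT it was 0.33 ± 0.15 (95% interval 0.00 to 0.66, adjusted p = 0.0568). The EAT value rested on EAT adipocyte replicate 1, the library with 777 FPKM: without it the log2 difference was 0.13 (adjusted p = 0.207), and without EAT adipocyte replicate 2 it was 0.48 (adjusted p = 0.00717). It was also called with median-of-ratios scaling (0.72, adjusted p = 0.0016), rescaled to TPM (0.39, adjusted p = 0.00192), rescaled without the members (0.47, adjusted p = 5.9e-04), without the eBayes trend (0.33, adjusted p = 0.0461) and with the length trend removed (0.27, adjusted p = 0.00408). The gene overlaps Lrrc61 on the opposite strand, whose mean level was at most 7.86 FPKM in any group, and strand use in counting was not given in the sources used here.

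Nampt, the rate-limiting enzyme of NAD salvage that also occurs outside cells, was higher in adipocytes. Its gene lies at chr12:32820335-32853369 (+ strand). It overlaps Gdap10, a long noncoding RNA gene on the same strand, so strand use could not separate the fragments of these genes. Nampt had 29.6, 29.8 and 28.8 FPKM in IAT adipocytes, against 24.6, 21.3 and 25.1 FPKM in IAT SVCs. EAT adipocytes had 32.1, 30.7 and 29.3 FPKM, against 24.5, 19.7 and 24.6 FPKM in EAT SVCs. The fractions did not overlap in either depot, and the log2 differences were 0.30 ± 0.091 in IAT and 0.41 ± 0.091 in EAT (SE, limma, adjusted p = 0.00749 and 9.7e-04). Their size depended on the scaling: it was 0.72 in IAT and 0.79 in EAT with median-of-ratios scaling, 0.52 and 0.55 rescaled without the members, and 0.77 and 0.88 with the length trend removed, all called.

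Apelin, the peptide ligand of the receptor Aplnr, was the only member called lower in adipocytes. Its gene lies at chrX:48025146-48034852 (- strand). Apln had 1.96, 1.19 and 1.65 FPKM in IAT adipocytes, against 8.23, 4.92 and 6.54 FPKM in IAT SVCs. In EAT it had 1.97, 1.69 and 2.09 FPKM in adipocytes, against 12.4, 11.1 and 11.6 FPKM in SVCs. SVC libraries were higher in every case, with log2 differences of -1.53 ± 0.15 in IAT and -2.12 ± 0.15 in EAT (SE, limma, adjusted p = 5.1e-07 and 1.8e-08). With a pseudocount of 5 these were -0.80 in IAT and -1.27 in EAT, both still called. The adipocyte mean was 24.4% of the SVC mean in IAT and 16.5% in EAT. Endothelial cells are a known source of apelin, and 10 endothelial marker genes had 19.1% (median, range 2.44% to 21.3%) of the SVC level in IAT adipocytes and 16.8% (median, range 4.18% to 22.1%) in EAT adipocytes. Their summed level was 147 to 188 FPKM in IAT adipocytes and 870 to 1070 FPKM in IAT SVCs, and 113 to 128 FPKM in EAT adipocytes and 695 to 729 FPKM in EAT SVCs. None of the 10 was at 0, and their part in the level of Apln was not tested.

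**Figure D2:**
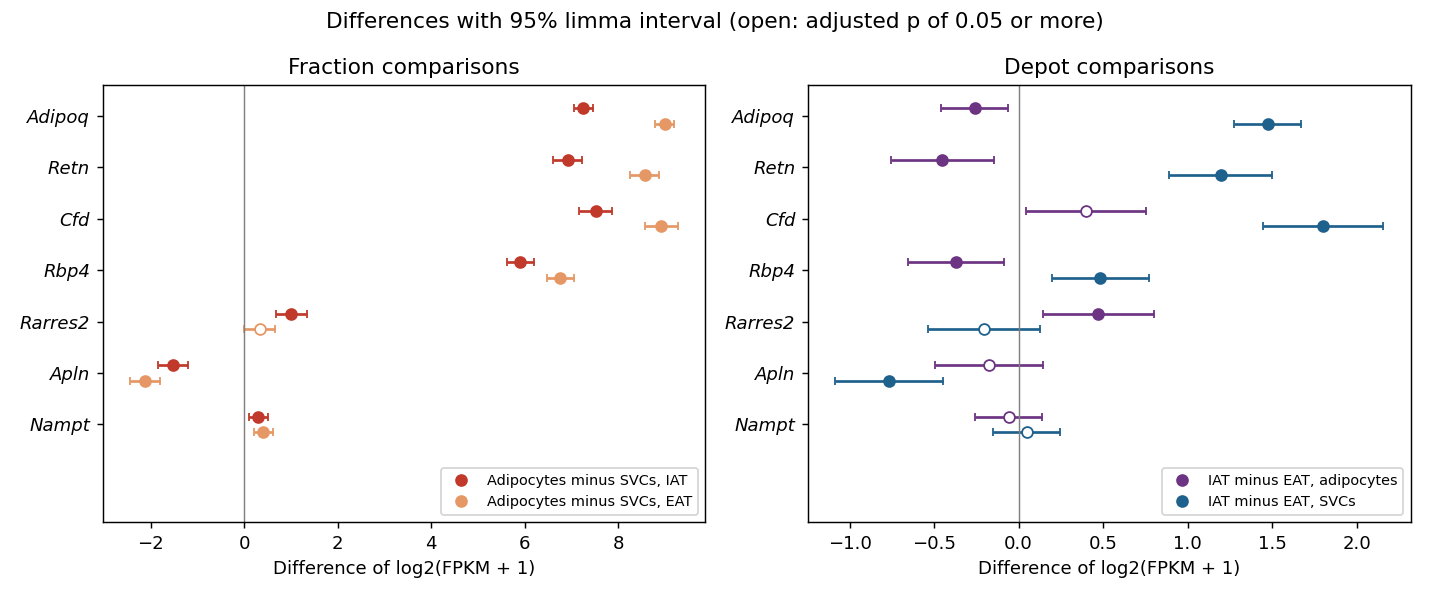
Differences of log2(FPKM + 1) for the 7 tested genes with 95% limma intervals, between fractions within each depot (left) and between depots within each fraction (right). Filled points have an adjusted p under 0.05. The fraction differences of Adipoq, Retn, Cfd and Rbp4 are far larger than any depot difference, and their depot differences in SVCs lie to the right of 0.

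Vaspin, an inhibitor of the protease kallikrein 7, was barely detected. Serpina12 lies at chr12:104028769-104044443 (- strand). It had 0.0229, 0.0548 and 0.0201 FPKM in IAT adipocytes and 0.0188, 0.0108 and 0.0482 FPKM in EAT adipocytes. The deposited bounds imply that these values rest on 10 fragments over the 3 IAT adipocyte libraries and 7 over the 3 EAT adipocyte libraries. The gene was listed at 0 in all 6 SVC libraries, and no comparison was made at this depth.

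Between depots, IAT adipocytes held less adiponectin, resistin and retinol binding protein 4 mRNA than EAT adipocytes as deposited, and more chemerin mRNA. Each of these differences lost its call under some settings and without some single libraries, as given below. Of 7 tested members, 1 was called higher in IAT adipocytes, 3 lower and 3 not called. Of all features, 37.6% were called (10.3% higher, 27.3% lower). For 3 of the 7 members the groups did not overlap as deposited, beside 48.3% of all features. The median log2 difference was -0.18 over the members and -0.10 over all features.

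Adipoq averaged 3461 ± 218 FPKM in IAT adipocytes and 4149.7 ± 317 FPKM in EAT adipocytes (SD, n = 3 each), without overlap. Its log2 difference was -0.26 ± 0.091 (SE, limma, adjusted p = 0.04). Retn averaged 3043 ± 161 FPKM in IAT adipocytes and 4243 ± 1073 FPKM in EAT adipocytes (SD, n = 3 each), also without overlap, and differed by -0.45 ± 0.14 (SE, limma, adjusted p = 0.0243). Rbp4 averaged 617 ± 31.9 FPKM in IAT adipocytes and 807 ± 155 FPKM in EAT adipocytes (SD, n = 3 each). Its groups did not overlap, and its log2 difference was -0.37 ± 0.13 (SE, limma, adjusted p = 0.0425). IAT levels of these 3 genes were thus 0.834, 0.717 and 0.765 of the EAT level for Adipoq, Retn and Rbp4 in that order.

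Rarres2 averaged 811 ± 38.3 FPKM in IAT adipocytes and 597 ± 159 FPKM in EAT adipocytes (SD, n = 3 each), a log2 difference of 0.47 ± 0.15 (SE, limma, adjusted p = 0.0275), although EAT adipocyte replicate 1 overlapped the IAT libraries. Cfd was 1.30 times as high in IAT adipocytes, and the difference of 0.40 ± 0.16 did not pass the test (95% interval 0.04 to 0.75, adjusted p = 0.0738). The 3 IAT libraries stood above EAT replicates 2 and 3 of Cfd and overlapped EAT replicate 1. Apln differed by -0.18 ± 0.15 (SE; 95% interval -0.49 to 0.14) and Nampt by -0.059 ± 0.091 (SE; 95% interval -0.26 to 0.14), with overlap and adjusted p of 0.376 and 0.645 in limma.

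EAT adipocyte replicate 1 stood apart from its group by transcript length, which touches these values. Among features with a mean of at least 10 FPKM, transcripts under 1 kb were a median 0.57 higher on the log2 scale in that library than in the mean of EAT adipocyte replicates 2 and 3, while those over 4 kb were 0.23 lower (-0.23). The member transcripts from 795 to 1161 bases long (Rarres2, Cfd, Retn and Rbp4) were 0.62, 0.53, 0.59 and 0.45 higher in it, whereas Adipoq (1292 bases) was 0.18 higher, Apln (3149 bases) 0.04 higher and Nampt (4527 bases) 0.10 higher. Without that library, Cfd passed the test at 0.57 (adjusted p = 0.00271), Rarres2 stood at 0.68 (adjusted p = 7.7e-05) and Retn at -0.26 (adjusted p = 0.022). Adipoq at -0.20 (adjusted p = 0.061) and Rbp4 at -0.22 (adjusted p = 0.0999) no longer passed. With a length trend removed from every library, the 4 calls stood and Cfd was called as well at 0.32 (adjusted p = 0.0171). The cause of the length shift was not tested.

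**Figure D3:**
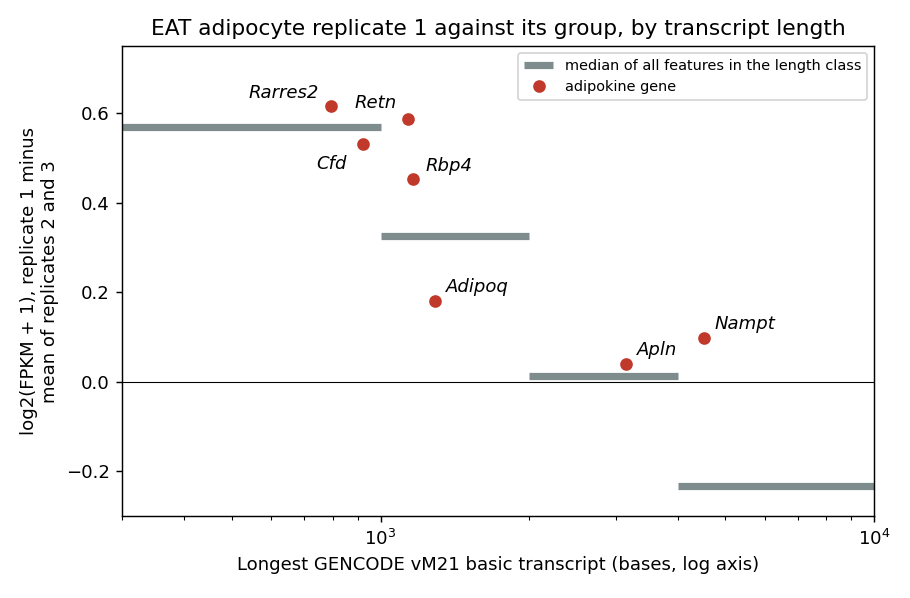
Departure of EAT adipocyte replicate 1 from the mean of replicates 2 and 3, in log2(FPKM + 1), against transcript length on a log axis. Points are the 7 tested adipokine genes and bars are medians of all features with a mean of at least 10 FPKM in each length class; the bars step down from 0.57 under 1 kb to -0.23 over 4 kb, and the 4 shortest members stand at 0.45 to 0.62.

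The other limit of the adipocyte comparison is scaling and the small number of libraries. Under median-of-ratios scaling the median log2 difference of all features was 0.00, beside -0.10 as deposited, and the split of calls was 2129 higher and 2195 lower, beside 1363 higher and 3597 lower. Relative to that shifted centre, Adipoq (-0.12, adjusted p = 0.412), Retn (-0.31, adjusted p = 0.159) and Rbp4 (-0.23, adjusted p = 0.262) kept their sign and were not called, whereas Rarres2 (0.62, adjusted p = 0.0148) and Cfd (0.54, adjusted p = 0.0359) were called higher in IAT adipocytes. Leaving out any of 7 single libraries took Adipoq out of the calls (EAT adipocyte replicates 1 and 3, IAT adipocyte replicates 1 and 3, EAT SVC replicate 1, IAT SVC replicates 2 and 3; adjusted p = 0.0511 to 0.127). The same held for 9 libraries with Rbp4 (all except EAT adipocyte replicate 2 and IAT SVC replicates 1 and 3; adjusted p = 0.0531 to 0.125), 4 with Rarres2 (EAT adipocyte replicates 2 and 3, IAT adipocyte replicates 1 and 2) and 2 with Retn (IAT adipocyte replicates 1 and 3).

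In the SVCs the depot order of adiponectin and resistin was the other way round, with higher levels in IAT, and adipsin was 3.55 times as high. Of the 7 tested members, 4 were called higher in IAT SVCs than in EAT SVCs, 1 lower and 2 not called, beside 40.2% of all features called (14% higher, 26.2% lower; 1843 and 3458 features, or 2413 and 2463 under median-of-ratios scaling). The groups did not overlap for 6 of 7 members, beside 55.1% of all features. The median log2 difference was 0.48 over the members and -0.06 over all features.

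Cfd averaged 108 ± 11.3 FPKM in IAT SVCs and 30.3 ± 4.72 FPKM in EAT SVCs (SD, n = 3 each), a log2 difference of 1.80 ± 0.16 (SE, limma, adjusted p = 1.9e-06). Adipoq averaged 21.7 ± 1.27 FPKM in IAT SVCs and 7.18 ± 0.648 FPKM in EAT SVCs (SD, n = 3 each), 3.02 times as high in IAT, with a log2 difference of 1.47 ± 0.091 (SE, limma, adjusted p = 4.9e-08). Retn averaged 24.3 ± 2.04 FPKM in IAT SVCs and 10.01 ± 0.231 FPKM in EAT SVCs (SD, n = 3 each), 2.43 times as high, with a log2 difference of 1.20 ± 0.14 (SE, limma, adjusted p = 2.1e-05). Every IAT SVC library stood above every EAT SVC library for these 3 genes. Rbp4 averaged 9.39 ± 1.63 FPKM in IAT SVCs and 6.37 ± 0.193 FPKM in EAT SVCs (SD, n = 3 each). It differed by 0.48 ± 0.13 without overlap (SE, limma, adjusted p = 0.0105), and by 0.37 without IAT SVC replicate 1 (adjusted p = 0.0523).

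Markers of adipocytes moved with these 4 genes. Of 10 adipocyte marker genes, 8 were higher in IAT SVCs than in EAT SVCs and none was lower, for example Cidec (log2 difference 1.22), Plin4 (1.56) and Dgat2 (0.76), which serve lipid droplets and triglyceride synthesis. The summed marker level was 6443.9 to 7284 FPKM in IAT SVCs and 4467 to 5240.3 FPKM in EAT SVCs, most of it from Fabp4, and none of the 10 was at 0. As a share of the adipocyte level in the same depot, the markers other than Fabp4 stood at 0.329% to 5.35% in IAT SVCs and at 0.0952% to 4.67% in EAT SVCs, and the share was higher in IAT for 10 of 10 markers. The corresponding shares were 0.626% in IAT and 0.173% in EAT for Adipoq, 0.544% and 0.199% for Cfd, 0.798% and 0.236% for Retn, and 1.52% and 0.789% for Rbp4, IAT before EAT. These 4 lay within the range of the markers. The part of adipocyte RNA in the SVC values was not tested.

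**Figure D4:**
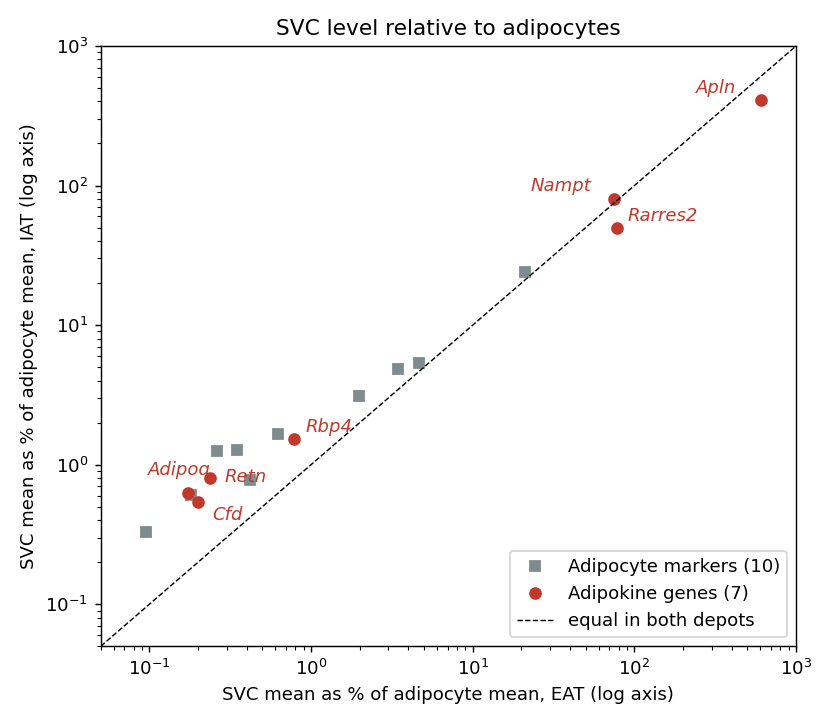
SVC mean as a percentage of the adipocyte mean of the same depot, IAT on the vertical and EAT on the horizontal log axis, for the 7 tested adipokine genes (circles) and 10 adipocyte markers (squares). Adipoq, Cfd, Retn and Rbp4 lie above the line of equality among the markers, while Rarres2, Nampt and Apln lie far to the right, at 49.7% or more.

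Apelin was the member called lower in IAT SVCs. Apln averaged 6.56 ± 1.65 FPKM in IAT SVCs and 11.7 ± 0.651 FPKM in EAT SVCs (SD, n = 3 each), 0.563 of the EAT level, and its log2 difference was -0.77 ± 0.15 without overlap (SE, limma, adjusted p = 0.00111). Of 10 endothelial markers, 6 were higher in IAT SVCs and none was lower. The part of endothelial cells in the depot difference of Apln was not tested. Rarres2 averaged 403 ± 31.1 FPKM in IAT SVCs and 464 ± 27.5 FPKM in EAT SVCs (SD, n = 3 each). Its groups did not overlap, but the difference of -0.20 ± 0.15 did not pass the test (95% interval -0.53 to 0.12, adjusted p = 0.316), although it did after rescaling to TPM (-0.31, adjusted p = 0.0186). Nampt averaged 23.7 ± 2.04 FPKM in IAT SVCs and 22.9 ± 2.78 FPKM in EAT SVCs (SD, n = 3 each), with overlap and a difference of 0.048 ± 0.091 (SE; 95% interval -0.15 to 0.25, limma adjusted p = 0.72).

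The depot difference in adipocytes was tested against that in SVCs in the same fit, as the adipocyte depot difference minus the SVC depot difference. Of the 7 members, 2 gave a positive value, 4 a negative value and Nampt was not called (-0.11 ± 0.13, SE; 95% interval -0.39 to 0.17), beside 32.5% of all features called (14.7% positive, 17.8% negative). The median was -0.85 over the members and -0.04 over all features. Adipoq, Retn, Cfd and Rbp4 were the 4 negative genes. Adipoq stood at -1.73 ± 0.13 (SE, adjusted p = 6.1e-07), Retn at -1.65 ± 0.20 (SE, adjusted p = 4.2e-05), Cfd at -1.40 ± 0.23 (SE, adjusted p = 5.2e-04) and Rbp4 at -0.85 ± 0.19 (SE, adjusted p = 0.00376). Among the 10 adipocyte markers, 7 were also negative and none was positive. Rarres2 (0.68 ± 0.21, SE, adjusted p = 0.029) and Apln (0.59 ± 0.21, SE, adjusted p = 0.0462) were the positive genes, and both lost the call when any of several single libraries was left out. For Rarres2 these were 8 libraries, all except EAT adipocyte replicate 1, IAT adipocyte replicate 3, EAT SVC replicate 2 and IAT SVC replicate 2, with values of 0.53 to 0.70 (adjusted p = 0.0511 to 0.071). For Apln they were 9, all except EAT adipocyte replicate 1, IAT adipocyte replicate 2 and IAT SVC replicate 1, with adjusted p up to 0.112. Apln also lost the call with a pseudocount of 0.1, no filter, TPM, rescaling without the members and median-of-ratios scaling. Without EAT adipocyte replicate 1 the 6 calls stood, at -1.67 for Adipoq, -1.45 for Retn, -1.23 for Cfd, -0.70 for Rbp4, 0.88 for Rarres2 and 0.60 for Apln.

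Over the 4 groups, the deposited mean levels of Adipoq, Retn and Rbp4 ran from EAT adipocytes through IAT adipocytes and IAT SVCs down to EAT SVCs. Neighbouring groups did not overlap for these genes. Overlap was judged on the deposited values alone. Under median-of-ratios scaling, the step between the adipocyte groups was not called for any of these genes. Cfd differed in having IAT adipocytes first, overlapping EAT adipocytes. Rarres2 ran in the order IAT adipocytes, EAT adipocytes, EAT SVCs and IAT SVCs, and EAT adipocytes overlapped both of their neighbours. Apln ran in the order EAT SVCs, IAT SVCs, EAT adipocytes and IAT adipocytes, with overlap only between the adipocyte groups. Nampt overlapped between depots in each fraction.

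The profiles most like each member were sought among 9291 features by the root mean square difference of log2(FPKM + 1) over the 12 libraries, each profile centred on its own mean. These profiles share the same libraries and the same large fraction difference, so they are a description. Nearest to Adipoq were Retn (0.252), Cfd (0.295) and Car3 (0.426). Nearest to Retn were Adipoq (0.252), Car3 (0.326) and Cidec (0.352), without Cfd. Nearest to Cfd were Adipoq (0.295), Retn (0.449) and Pck1 (0.504). Rbp4 was nearest to Dgat2 (0.199), Mrap (0.241) and Cdo1 (0.244). Apln was nearest to Kit (0.128), Prnd (0.131) and Zswim6 (0.137). Rarres2 was nearest to Fxyd1 (0.0815), Pcbd2 (0.0984) and Hcfc1r1 (0.0988), and Nampt to Sypl (0.0747), Abhd10 (0.0773) and Dynlt3 (0.0883).

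Receptors and binding partners of these proteins were found in both fractions. Of 16 such genes in the tables, 12 were tested. In IAT, 3 were higher in adipocytes than in SVCs and 9 lower, and in EAT likewise 3 were higher and 9 lower. Over all features, 29.8% were higher and 53.9% lower in IAT, and 31.1% were higher and 52.7% lower in EAT. With median-of-ratios scaling, which evens that split, 3 of the 12 were higher and 8 lower in IAT, and 4 were higher and 8 lower in EAT. The median log2 difference was -1.51 in IAT and -1.40 in EAT. Between depots, 3 rose and 3 fell in IAT adipocytes, and 2 rose and 5 fell in IAT SVCs, relative to EAT (4 and 2 in adipocytes and 3 and 4 in SVCs under that scaling). As deposited, 10.3% of all features were called higher and 27.3% lower in IAT adipocytes, and 14% higher and 26.2% lower in IAT SVCs.

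Adiponectin acts through Adipor1 and Adipor2 and binds the surface protein Cdh13 (T-cadherin). Adipor2 was the adiponectin receptor with an excess in adipocytes, at 161 ± 15.4 FPKM in IAT adipocytes and 28.5 ± 0.606 FPKM in IAT SVCs (SD, n = 3 each), a log2 difference of 2.45 (limma, adjusted p = 8.0e-10). In EAT it had 149 ± 30.2 FPKM in adipocytes and 29.9 ± 0.365 FPKM in SVCs (SD, n = 3 each). Adipor1 was lower in adipocytes as deposited, by -0.48 in IAT and -0.22 in EAT on the log2 scale, but with median-of-ratios scaling it stood at -0.063 in IAT (adjusted p = 0.325) and 0.17 in EAT (adjusted p = 0.0181). Cdh13 was lower by -2.55 in IAT and -2.995 in EAT, with 6.19 ± 0.993 FPKM in IAT adipocytes, 4.94 ± 2.58 FPKM in EAT adipocytes, 41.3 ± 6.45 FPKM in IAT SVCs and 42.8 ± 4.89 FPKM in EAT SVCs (SD, n = 3 each). Between depots, Adipor1 was lower in IAT adipocytes (39.4 FPKM) than in EAT adipocytes (48.2 FPKM), with a log2 difference of -0.28 (limma, adjusted p = 0.00167) that did not pass under that scaling (-0.14, adjusted p = 0.0757).

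Chemerin signals through Cmklr1 and Gpr1 and is bound by Ccrl2, which presents it to other cells. Cmklr1 was higher in adipocytes, at 40.0 ± 4.41 FPKM in IAT adipocytes, 45.4 ± 13.2 FPKM in EAT adipocytes, 12.5 ± 0.521 FPKM in IAT SVCs and 25.5 ± 1.90 FPKM in EAT SVCs (SD, n = 3 each). Gpr1 and Ccrl2 were higher in SVCs, and they differed between depots in opposite directions there. Gpr1 averaged 5.62 ± 0.781 FPKM in IAT SVCs and 2.34 ± 0.0852 FPKM in EAT SVCs (log2 difference 0.98, limma, adjusted p = 2.7e-06). Ccrl2 averaged 7.74 ± 0.938 FPKM in IAT SVCs and 35.5 ± 1.54 FPKM in EAT SVCs (log2 difference -2.07, limma, adjusted p = 2.2e-08). Macrophages are a known site of Cmklr1 and Ccrl2 in mice, and 8 of 10 macrophage markers were also lower in IAT SVCs, with a summed level of 2155 to 2358 FPKM in IAT SVCs and 4006 to 4194 FPKM in EAT SVCs and none at 0. Their part in these differences was not tested.

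The apelin receptor Aplnr followed its ligand into the SVCs, with 1.77 ± 0.195 FPKM in IAT adipocytes and 10.6 ± 0.389 FPKM in IAT SVCs, and 1.19 ± 0.112 FPKM in EAT adipocytes and 7.85 ± 0.866 FPKM in EAT SVCs (SD, n = 3 each). Its depot difference in SVCs was 0.40 (limma, adjusted p = 0.00264), opposite in sign to that of Apln, and did not pass after rescaling to TPM (0.32, adjusted p = 0.06). Of the proteins adipsin acts with, factor B (Cfb) was higher in adipocytes and complement C3 in SVCs. Cfb averaged 177 ± 3.49 FPKM in IAT adipocytes and 77.2 ± 4.46 FPKM in IAT SVCs (SD, n = 3 each), a log2 difference of 1.19 (limma, adjusted p = 4.9e-09). C3 averaged 166 ± 18.3 FPKM in IAT adipocytes and 61.1 ± 15.8 FPKM in EAT adipocytes (SD, n = 3 each), a log2 difference of 1.46 (limma, adjusted p = 2.3e-05), while SVCs held 625 ± 47.3 FPKM in IAT and 985 ± 60.8 FPKM in EAT (SD, n = 3 each). C3ar1, the receptor for the C3a fragment, averaged 13.2 ± 0.639 FPKM in IAT SVCs and 35.8 ± 1.98 FPKM in EAT SVCs, and 0.488 ± 0.148 FPKM in IAT adipocytes and 4.67 ± 0.363 FPKM in EAT adipocytes (SD, n = 3 each). The summed macrophage markers, whose part was not tested, averaged 97.4 FPKM in IAT adipocytes and 509 FPKM in EAT adipocytes.

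**Figure D5:**
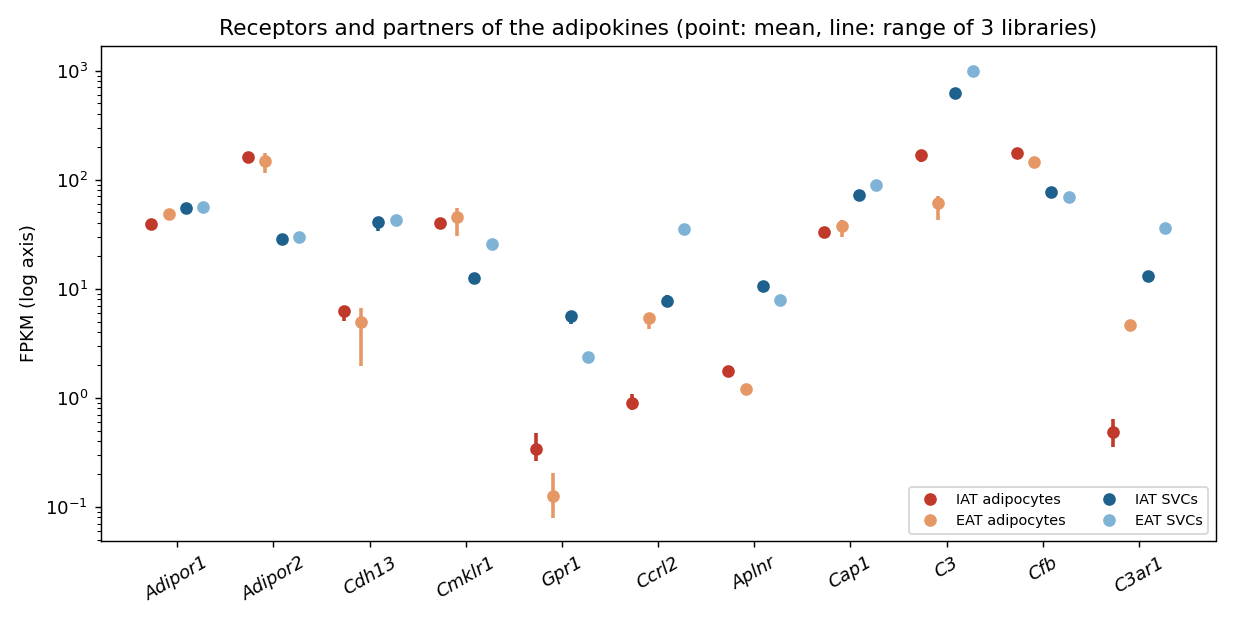
FPKM on a log axis of 11 receptors and partners of the adipokines in the 4 groups, with points at the mean and lines over the range of 3 libraries. Adipor2, Cmklr1 and Cfb are higher in adipocytes, while the 8 others are higher in SVCs as deposited; Adipor1 turns to 0.17 higher in EAT adipocytes with median-of-ratios scaling.

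Cap1, a partner described for resistin in human cells, was lower in adipocytes, at 32.9 ± 1.14 FPKM in IAT adipocytes, 37.8 ± 6.86 FPKM in EAT adipocytes, 72.0 ± 3.52 FPKM in IAT SVCs and 89.0 ± 1.53 FPKM in EAT SVCs (SD, n = 3 each). Hspa5, an endoplasmic reticulum chaperone described as a surface partner of vaspin, was lower in adipocytes by -0.96 in IAT and -0.86 in EAT. Stra6 and Stra6l, the membrane receptors of retinol binding protein, Ttr, its companion in blood, and Klk7, the target of vaspin, averaged at most 0.239 FPKM in any group and were not tested.

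Relatives of resistin had the opposite fraction pattern. Retnla (RELM alpha, a product of alternatively activated macrophages) averaged 79.0 ± 14.0 FPKM in IAT adipocytes and 2797 ± 183 FPKM in IAT SVCs, and 655 ± 261 FPKM in EAT adipocytes and 5642 ± 361 FPKM in EAT SVCs (SD, n = 3 each). Its log2 differences were -5.14 in IAT and -3.17 in EAT (limma, adjusted p = 1.3e-10 and 1.6e-08). The 10 macrophage markers summed to 79.4 to 116 FPKM in IAT adipocytes and 452 to 563 FPKM in EAT adipocytes, with none at 0 in either group, beside the SVC sums above. All 10 were lower in IAT adipocytes than in EAT adipocytes, as was Retnla, and their part in its levels was not tested. Retnlg, a neutrophil gene, averaged 0.286 ± 0.160 FPKM in IAT adipocytes and 7.81 ± 1.46 FPKM in IAT SVCs, and 0.376 ± 0.249 FPKM in EAT adipocytes and 16.2 ± 1.86 FPKM in EAT SVCs (SD, n = 3 each). Retnlb was below the filter. In SVCs both tested relatives were lower in IAT, by -1.01 for Retnla and -0.98 for Retnlg, whereas Retn was higher in IAT SVCs.

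The C1q/TNF family holds relatives of adiponectin in structure. Adipocytes of IAT had more of 1 and less of 6 of the 7 tested members than IAT SVCs had, and 7 of 7 were lower in EAT adipocytes than in EAT SVCs, counts that were the same with median-of-ratios scaling. Over all features, 53.9% were called lower in IAT adipocytes and 52.7% in EAT adipocytes. C1qtnf9 averaged 17.2 ± 2.11 FPKM in IAT adipocytes and 80.6 ± 9.36 FPKM in IAT SVCs (SD, n = 3 each), a log2 difference of -2.16 (limma, adjusted p = 2.4e-10). C1qtnf6 averaged 29.7 ± 1.13 FPKM in IAT SVCs and 17.7 ± 0.457 FPKM in EAT SVCs (SD, n = 3 each), and C1qtnf7 had the reverse depot order there, with 4.31 ± 0.227 FPKM in IAT SVCs and 13.6 ± 1.20 FPKM in EAT SVCs (SD, n = 3 each).

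Of 9 tested genes for proteins that fold and assemble adiponectin in the secretory pathway, 2 were higher and 6 lower in adipocytes in each depot, or 3 and 6 with median-of-ratios scaling. These shares were near those of all features (29.8% higher and 53.9% lower in IAT, 31.1% and 52.7% in EAT). Gstk1, which promotes adiponectin multimers, was higher in adipocytes, at 91.8 ± 1.94 FPKM in IAT adipocytes and 13.3 ± 0.570 FPKM in IAT SVCs, and 68.0 ± 14.1 FPKM in EAT adipocytes and 11.6 ± 1.31 FPKM in EAT SVCs (SD, n = 3 each). Ero1l, an oxidase that helps release adiponectin from the endoplasmic reticulum, was lower in adipocytes, by -0.995 in IAT and -0.55 in EAT, where it did not pass with the length trend removed (-0.090, adjusted p = 0.267). Between the adipocyte groups, 1 of the 9 was higher in IAT (Gstk1, 0.45, adjusted p = 0.0114 in limma) and 4 were lower, among them Pdia4 (-0.34) and Ero1l (-0.33). That count of 4 fell to 1 under median-of-ratios scaling. As deposited, 10.3% of all features were called higher and 27.3% lower in IAT adipocytes.

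Transcription factors of the adipocyte programme include the drivers of adiponectin transcription named above. Against the SVCs of the same depot, 7 of 14 tested were higher and 7 lower in IAT adipocytes, and 7 were higher and 6 lower in EAT adipocytes. Beside these deposited counts stand 29.8% of all features higher and 53.9% lower in IAT, and 31.1% higher and 52.7% lower in EAT. With median-of-ratios scaling that split was even, at 5524 features higher and 5316 lower in IAT and 5544 and 5314 in EAT. Cebpa, which encodes C/EBP alpha, averaged 399 ± 16.1 FPKM in IAT adipocytes and 24.4 ± 3.00 FPKM in IAT SVCs, and 382 ± 3.46 FPKM in EAT adipocytes and 33.8 ± 3.64 FPKM in EAT SVCs (SD, n = 3 each). Pparg averaged 208 ± 26.6 FPKM in IAT adipocytes and 46.7 ± 1.35 FPKM in IAT SVCs, and 227 ± 8.69 FPKM in EAT adipocytes and 35.4 ± 1.62 FPKM in EAT SVCs (SD, n = 3 each). Neither differed between the adipocyte groups beyond the test (log2 difference 0.06 for Cebpa and -0.13 for Pparg, adjusted p = 0.655 and 0.267 in limma). In SVCs, Pparg was higher in IAT (0.39, adjusted p = 0.00367 in limma) and Cebpa lower (-0.45, adjusted p = 0.00207).

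Of the 14 tested genes of NAD synthesis and use, the pathway that NAMPT feeds, 7 were higher and 3 lower in adipocytes against SVCs in IAT, and 9 were higher and 4 lower in EAT. The shares of all features were 29.8% higher and 53.9% lower in IAT, and 31.1% higher and 52.7% lower in EAT. Median-of-ratios scaling evened that split, to 5524 features higher and 5316 lower in IAT and 5544 and 5314 in EAT. The list counts given here are as deposited. Nnmt, which methylates nicotinamide and so removes the substrate of NAMPT, averaged 328 ± 18.0 FPKM in IAT adipocytes and 13.1 ± 0.413 FPKM in IAT SVCs, and 305 ± 101 FPKM in EAT adipocytes and 17.9 ± 1.94 FPKM in EAT SVCs (SD, n = 3 each). Cd38, an NAD-consuming enzyme of immune cells, was lower in adipocytes by -2.69 in IAT and -2.24 in EAT. Between the adipocyte groups, Nmnat3 (0.42) and Sirt3 (0.50), which make and use NAD in mitochondria, were higher in IAT (limma, adjusted p = 5.9e-04 and 9.6e-04).

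Genes that take up and convert retinoids, the cargo of retinol binding protein 4, were compared between depots. Of 9 tested, none was higher and 6 were lower in IAT SVCs than in EAT SVCs, beside 14% of all features higher and 26.2% lower. Those counts were the same with median-of-ratios scaling, which evens the split over all features. In IAT adipocytes 1 rose and 3 fell against EAT adipocytes, beside 10.3% of all features higher and 27.3% lower. Aldh1a2, which makes retinoic acid, averaged 4.87 ± 0.416 FPKM in IAT SVCs and 40.8 ± 0.239 FPKM in EAT SVCs (SD, n = 3 each), a log2 difference of -2.83 (limma, adjusted p = 1.2e-11). Aldh1a1 averaged 54.6 ± 1.50 FPKM in IAT adipocytes and 120.4 ± 2.02 FPKM in EAT adipocytes (SD, n = 3 each), a log2 difference of -1.13 (limma, adjusted p = 2.8e-08). Mesothelial cells cover visceral fat and express Aldh1a2, and 10 of 10 mesothelial markers were lower in IAT SVCs, with a summed level of 2.88 to 3.88 FPKM in IAT SVCs, where 2 of the 10 were at 0, and 475 to 543 FPKM in EAT SVCs, where none was. Their part in the retinoid genes was not tested.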

How the data were processed

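The series holds 12 mouse RNA-seq libraries, 3 in each of 4 groups taken from the sample titles. The values are FPKM per gene with lower and upper confidence bounds, as deposited by the authors, 1 table per library. TopHat, Cufflinks and the mouse build GRCm38 (mm10) are named, per the submitters' processing notes; the sources used here give no version, setting, strand use or annotation. Features with a failed estimate in any library (9 of 24890) were left out.

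Values were transformed to log2(FPKM + 1), with a pseudocount of 1, and the 13175 features that reached 1 FPKM in 3 or more libraries were fitted with limma 3.58.1 (lmFit, eBayes with a trend) in R 4.3.3. The fit had 4 group means and no covariate. Tests were two-sided, adjusted over all tested features by Benjamini-Hochberg, and called under 0.05. Fits were tested on simulated data. Fragments behind a value were estimated from its bounds, with 57.5% to 61.5% of the values under 30 fragments per library whole within 0.02, so no count test was run. Depths of 14.1 to 24.6 M fragments are sums of these estimates and are rough, since the bounds of some abundant genes did not follow their level. Those of Cfd stayed 2.98% to 3.00% from its value in the adipocyte libraries, while its level ran from 12688 to 21635 FPKM. Bounds do not measure the spread between libraries. Transcript lengths and overlaps came from GENCODE vM21 and promoters from RefSeq (GRCm38.p6), which matched 7 of the 8 members.

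The 8 members, the gene lists and the marker lists were chosen with earlier results of these data known, and counts over the lists are descriptions. Named genes were the members, all receptors, up to 4 genes per list and comparison with the smallest p, and the 3 nearest profiles per member. Markers were named as examples of their lists. Alternatives covered the pseudocount (0.1 and 5), the filter, 3 scalings, the eBayes trend, a replicate block, the compared groups alone and each library left out in turn. Removing a length trend in each library (lowess, span 0.3) was an alternative added after seeing the data.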

Additional observations from a re-analysis of the deposited data

Results flagged for a closer look

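For 6 of the 7 tested adipokine genes, the depot difference in adipocytes differed from that in SVCs by limma's test of the difference itself. The values, as the adipocyte difference minus the SVC difference on the log2 scale, were -1.734 for Adipoq, -1.647 for Retn, -1.404 for Cfd, -0.8541 for Rbp4, 0.6765 for Rarres2 and 0.5902 for Apln. Adipoq, Retn and Rbp4 were called lower in IAT adipocytes than in EAT adipocytes and higher in IAT SVCs than in EAT SVCs. Their adipocyte calls were lost, with the sign kept, under median-of-ratios scaling and with the compared groups alone, and when some single libraries were left out. Cfd was called in SVCs, where it was higher in IAT, and was 0.40 higher in IAT adipocytes without passing the test. Rarres2 was called higher in IAT adipocytes and Apln lower in IAT SVCs. In the test between depot differences, Rarres2 lost its call in 8 of 22 alternatives and Apln in 14 of 22. The calls of Adipoq, Retn, Cfd and Rbp4 in that test stood in all 22. Of all features, 32.5% passed the same test, and 7 of 10 adipocyte markers were negative in it.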

How the results depend on the processing

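The 35 member differences were recomputed under up to 23 alternatives, 798 values in all, and 725 kept their direction and their side of the threshold. The fraction differences of all tested members except Rarres2 kept both in 276 of 276 values. Nampt, never called between depots, changed sign in adipocytes to 0.080 (median-of-ratios) and 0.066 (length trend removed). In SVCs it changed sign to -0.054 with TPM and with rescaling without the members, and leaving out single libraries gave -0.052 to 0.12, the lowest without EAT SVC replicate 2. Rarres2 was called higher in EAT adipocytes than in EAT SVCs under 5 processing settings, which moved that count of members to 6, beside 5. In adipocytes, the count of members higher in IAT (1) was 0 with no filter and 0 with the compared groups alone, and 2 with TPM, rescaling without the members, median-of-ratios and the length trend removed. The count lower in IAT adipocytes (3) was 0 with median-of-ratios and 0 with the compared groups alone. In SVCs, the count lower in IAT (1) was 2 with TPM, rescaling without the members and the length trend removed. The positive count in the test between depot differences (2) was 1 with a pseudocount of 0.1, no filter, TPM, rescaling without the members and median-of-ratios. Apln was the member that lost its call in each case. Leaving out each library gave 0 to 2 higher and 0 to 3 lower in IAT adipocytes, 3 to 4 higher and 1 lower in IAT SVCs, and 0 to 2 positive and 4 negative between depot differences. The cause of these changes was not tested. With the length trend removed, calls over all features split into 2180 higher and 2813 lower in IAT adipocytes, 2892 and 2984 in IAT SVCs, 5505 and 5553 between fractions in IAT and 5666 and 5526 in EAT; with TPM the split was 1436 higher and 4379 lower in IAT SVCs.

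The replicate block, with the library number as a term, left the members called in adipocytes at 1 higher and 3 lower and changed no other member call. It gave 4796 calls over all features between adipocyte groups, beside 4960 without it. Same-numbered libraries of different groups deviated with correlations of -0.31 to 0.37, over 0.1 in 5 of 18 pairs of libraries. Between EAT and IAT adipocytes they were 0.37, -0.079 and 0.35 for replicates 1, 2 and 3. These values cannot tell whether same-numbered libraries share mice, since shifts of single libraries, such as that by transcript length, also enter them. The labels name no mouse, so the numbers were not taken as pairs. Depth limits Serpina12, which rests on 10 fragments in IAT adipocytes and 7 in EAT adipocytes.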

Other observations

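Among other secreted factors of fat, 18 of the 20 listed genes were tested. Against SVCs, 8 were higher and 8 lower in IAT adipocytes, and 7 were higher and 11 lower in EAT adipocytes. For all features the deposited shares were 29.8% higher and 53.9% lower in IAT, and 31.1% higher and 52.7% lower in EAT. That split evened to 5524 features higher and 5316 lower in IAT, and 5544 and 5314 in EAT, with median-of-ratios scaling. Sfrp5, a secreted antagonist of Wnt signalling, had a depot order that differed between the fractions, as Adipoq and Retn did. It averaged 36.2 ± 1.42 FPKM in IAT adipocytes and 88.4 ± 11.6 FPKM in EAT adipocytes, and 7.61 ± 1.84 FPKM in IAT SVCs and 0.364 ± 0.114 FPKM in EAT SVCs (SD, n = 3 each), and the difference between the depot differences was -3.90 ± 0.19 on the log2 scale (SE, limma, adjusted p = 1.6e-08). Agt, which encodes angiotensinogen, averaged 24.7 ± 6.20 FPKM in IAT adipocytes and 224 ± 3.02 FPKM in EAT adipocytes (SD, n = 3 each), a log2 difference of -3.16 (limma, adjusted p = 6.0e-09). Angptl4, an inhibitor of lipoprotein lipase, had the reverse order, with 843 ± 32.6 FPKM in IAT adipocytes and 493 ± 27.5 FPKM in EAT adipocytes (SD, n = 3 each; log2 difference 0.77, limma, adjusted p = 4.5e-06). Lcn2, an iron-binding lipocalin, averaged 1.80 ± 0.339 FPKM in IAT SVCs and 17.9 ± 1.49 FPKM in EAT SVCs (SD, n = 3 each; log2 difference -2.76, limma, adjusted p = 1.0e-08). Itln1 (omentin) was listed at 0 in all 12 libraries.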
